A study of Homo sapiens with 22 samples.

Results

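Insertions of a self-reporting piggyBac transposon were examined at 6 genes of fetal globin switching, BCL11A, ZBTB7A, MYB, HBS1L, LIN28B and IGF2BP1, out of 20033 protein-coding genes in GENCODE 44. The genes were taken by name, and the insertions counted for each were those within the gene body and 50 kb either side, with the whole interval between HBS1L and MYB added as a span of its own. The cells were K562, a human leukemia line of erythroid character, electroporated with a barcoded transposon carrying puromycin resistance and a helper plasmid for the transposase, then kept under puromycin before RNA was taken. The helper was hyPBase, a hyperactive piggyBac transposase, in 10 libraries and hyPBase-centrip in 10 libraries, and the sources used here do not describe how the helpers differ. Nothing in the labels says whether every library came from transfections of its own, so the p-values measure the spread between libraries, part of which may be technical. A further 2 libraries with conflicting labels entered no comparison. RNA came from 3 transfections taken as a set, as the labels describe it.

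The switch from fetal to adult hemoglobin in red cell precursors rests on repressors of the gamma-globin genes and on factors that set the developmental stage of the cell. BCL11A and ZBTB7A are zinc-finger proteins that each silence gamma-globin directly, and MYB is a transcription factor of erythroid progenitors that also keeps fetal hemoglobin low. Variants between HBS1L and MYB alter fetal hemoglobin, and distal enhancers of MYB lie there. LIN28B and IGF2BP1 are RNA-binding proteins of the fetal stage that act against BCL11A. The transposase inserts at TTAA tetranucleotides, and here it was not fused to a transcription factor.

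The TTAA site with the most insertions in each window is shown first, since these positions carry the highest counts described here. Each line gives the plus strand of hg38 from 5′ to 3′, with the TTAA in capitals.
BCL11A, chr2:60551063-60551126: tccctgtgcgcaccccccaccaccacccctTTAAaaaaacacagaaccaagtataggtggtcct
ZBTB7A, chr19:4075400-4075463: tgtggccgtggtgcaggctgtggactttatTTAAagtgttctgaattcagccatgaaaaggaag
HBS1L, chr6:135085857-135085920: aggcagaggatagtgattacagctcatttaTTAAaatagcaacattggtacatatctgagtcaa
MYB, chr6:135149107-135149170: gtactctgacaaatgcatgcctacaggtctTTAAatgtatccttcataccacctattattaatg
LIN28B, chr6:104958904-104958967: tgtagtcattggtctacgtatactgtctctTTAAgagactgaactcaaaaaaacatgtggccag
IGF2BP1, chr17:48992458-48992521: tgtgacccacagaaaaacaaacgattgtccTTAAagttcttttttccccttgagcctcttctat
The IGF2BP1 site held 799 insertions summed over the 20 libraries, between 34 and 42 in a library, and lay at -4.90 kb from the start site (upstream, outside protein-coding genes). The HBS1L site held 593 and lay at -31.1 kb from the canonical HBS1L start, in a part of the gene body that a longer transcript covers. The MYB site held 519 and lay at -32.2 kb from the MYB start, between the genes. The LIN28B site held 454 and lay at 1.83 kb downstream, in intron 2. The ZBTB7A site held 176 and lay at -8.53 kb. These 5 sites were hit in 20 of 20 libraries. The BCL11A site, in intron 1 and 2.56 kb downstream of the start, held only 27 insertions from 15 libraries, and all 27 were in the plus orientation, the strand opposite to the gene. Each library carried 26 barcodes, so a site could hold at most 52 entries in a library over both orientations, a limit set beside the 42 of the fullest IGF2BP1 library.

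A further set of stretches shows 200 bases at the known enhancer with the highest density, at the start site with the highest density and at a BCL11A enhancer. Enhancer positions were set by their usual distance from the canonical start site, as no file lists them, and the TTAA sites are again in capitals on the plus strand of hg38.
MYB -84 kb enhancer, chr6:135096953-135097152: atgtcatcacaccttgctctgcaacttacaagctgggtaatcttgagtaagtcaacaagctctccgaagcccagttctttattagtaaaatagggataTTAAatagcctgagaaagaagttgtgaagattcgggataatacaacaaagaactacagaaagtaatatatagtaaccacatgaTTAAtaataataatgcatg
LIN28B start site, chr6:104956911-104957110: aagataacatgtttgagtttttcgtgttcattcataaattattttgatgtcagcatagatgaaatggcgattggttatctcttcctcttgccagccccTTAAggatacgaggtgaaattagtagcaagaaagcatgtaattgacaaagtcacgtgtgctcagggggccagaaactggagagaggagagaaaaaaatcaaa
BCL11A +62 kb enhancer, chr2:60490911-60491110: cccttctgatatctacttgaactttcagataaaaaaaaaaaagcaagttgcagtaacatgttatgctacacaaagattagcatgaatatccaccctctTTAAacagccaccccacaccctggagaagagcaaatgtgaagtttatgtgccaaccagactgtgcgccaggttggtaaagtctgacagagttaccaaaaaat
The 2 TTAA sites of the MYB -84 kb stretch held 242 and 108 insertions, and the stretch lies in the HBS1L gene body outside its canonical transcript. The single TTAA of the LIN28B stretch held 313 insertions and lies at -0.098 kb from the canonical start. The single TTAA of the BCL11A +62 kb stretch, in intron 2, held 8 insertions from 7 libraries. The letters AGATAA, a core motif of the erythroid factor GATA1, were searched on both strands in the 2 kb around each position and were found at all 5 enhancers and at 5 of the 6 start sites, MYB being without them. The same letters are in 75.8% of 2 kb tiles of the genome and 49.9% of such start-site intervals, so their presence sets these positions little apart.

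All 52121915 insertions on chromosomes 1 to 22, X and Y lay on a TTAA of hg38. A library held between 1509672 and 3596762 insertions in all. Summed over the 20 libraries, a TTAA site of the genome held 2.71 insertions on average. Counts summed over libraries are used for levels below, while tests and errors are over the libraries.

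The first question was whether each window held more insertions per TTAA site than the surrounding 1 Mb, taken as 500 kb beyond each edge. HBS1L, MYB, LIN28B and IGF2BP1 were each more than 2-fold denser than their surroundings, ZBTB7A was slightly denser, and BCL11A was 0.436 times as dense. The order by fold was LIN28B, MYB, IGF2BP1, HBS1L, ZBTB7A and BCL11A. Of the 6 genes, 5 were denser and 1 sparser at an adjusted p below 0.05 (limma, Benjamini-Hochberg over 19741 genes), against 48.2% denser and 45.3% sparser of all genes tested, so passing the test alone says little. Other protein-coding genes reach into the windows of ZBTB7A (PIAS4 and MAP2K2), HBS1L (ALDH8A1), LIN28B (BVES) and IGF2BP1 (GIP), and their insertions were not separated. At least 2-fold denser were 4 of 6, against 15.5% of all genes, and at least 2-fold sparser was 1, against 13.3%. With insertions at a position and orientation counted once in a library whatever their barcode, 3 of these 5 were no longer 2-fold, at log2 ratios of 0.66 for HBS1L, 0.62 for IGF2BP1 and -0.77 for BCL11A. The median log2 density over surroundings was 1.22 for the 6 genes and 0.03 for all genes.

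LIN28B, whose product blocks maturation of let-7 microRNAs, lies at chr6:104936616-105083332 on the plus strand. Its window held 18968 insertions at 2103 TTAA sites, 9.02 per site against 2.70 in the surroundings. With hyPBase the fold over surroundings ran from 3.25 to 3.83 with a median of 3.48, and with hyPBase-centrip from 2.76 to 3.42 with a median of 3.27. The window was denser in 20 of 20 libraries, with a log2 ratio of 1.74 ± 0.02 (SE, adjusted p = 7.09e-84 by limma), at the 96.1st percentile of all genes. Both sides of the locus lay near the 2.71 of the genome, with 2.43 insertions per site in the 500 kb upstream and 3.01 downstream. With insertions at a position and orientation counted once in a library the log2 ratio was 1.09.

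MYB lies at chr6:135181308-135219173 on the plus strand. Its window held 26230 insertions at 944 TTAA sites, and its 27.8 per site was the highest level of the 6 windows, against 9.93 in its surroundings. The fold ran from 2.70 to 2.97 with hyPBase, median 2.82, and from 2.58 to 3.05 with hyPBase-centrip, median 2.84. All 20 libraries were above 1, with a log2 ratio of 1.49 ± 0.01 (SE, adjusted p = 3.43e-84 by limma), and 0.61 for the gene body alone.

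HBS1L, which encodes a factor that rescues stalled ribosomes, lies at chr6:134960378-135103056 on the minus strand, head to head with MYB. Its window held 40711 insertions at 1913 TTAA sites, 21.3 per site against 9.46, and its log2 ratio was 1.17 ± 0.01 (SE, adjusted p = 6.27e-81 by limma). The fold ran from 2.22 to 2.44 with hyPBase and from 2.12 to 2.29 with hyPBase-centrip. The HBS1L and MYB windows overlap, and each lies largely in the surroundings of the other. Taken as a single span, they held 58249 insertions, 21.5 per site against 7.15, a log2 ratio of 1.59 ± 0.01 (SE, adjusted p = 1.30e-92 by limma).

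IGF2BP1 lies at chr17:48997385-49056145 on the plus strand. Its window held 16763 insertions at 708 TTAA sites, 23.7 per site against 9.86, with a log2 ratio of 1.26 ± 0.02 (SE, adjusted p = 9.61e-74 by limma). The fold ran from 2.37 to 2.69 with hyPBase, median 2.52, and from 1.99 to 2.48 with hyPBase-centrip, median 2.37. The surroundings were uneven, with 14.4 insertions per site in the 500 kb upstream and 5.13 downstream. The window thus lay above either side. The log2 ratio was 0.22 for the gene body alone, without the upstream flank.

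ZBTB7A lies at chr19:4043303-4066899 on the minus strand in TTAA-poor sequence, with 1.78 TTAA per kb of window against 8.52 for LIN28B. Its window held 1521 insertions at 220 TTAA sites, 6.91 per site against 5.48, and the fold ran from 1.08 to 1.53 over the 20 libraries. The 500 kb upstream held 6.38 per site and the 500 kb downstream 4.61, so the window lay only slightly above its upstream side. The log2 ratio was 0.33 ± 0.04 (SE, adjusted p = 1.37e-12 by limma), at the 63.1st percentile of all genes. For the gene body alone the direction turned (log2 ratio -0.25, adjusted p = 0.0358 by limma).

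BCL11A lies at chr2:60450520-60554467 on the minus strand. Its window held 1834 insertions at 1174 TTAA sites, 1.56 per site against 3.58 in the surroundings and 2.71 in the genome. A library held between 46 and 144 insertions there, and the fold ran from 0.346 to 0.517 over the 20 libraries, below 1 in each. The log2 ratio was -1.20 ± 0.04 (SE, adjusted p = 1.85e-47 by limma), at the 9.74th percentile of all genes. The surroundings were lopsided, with 5.75 insertions per site in the 500 kb upstream and 1.18 downstream, so the window was sparse against its upstream side only.

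**Figure D1:**
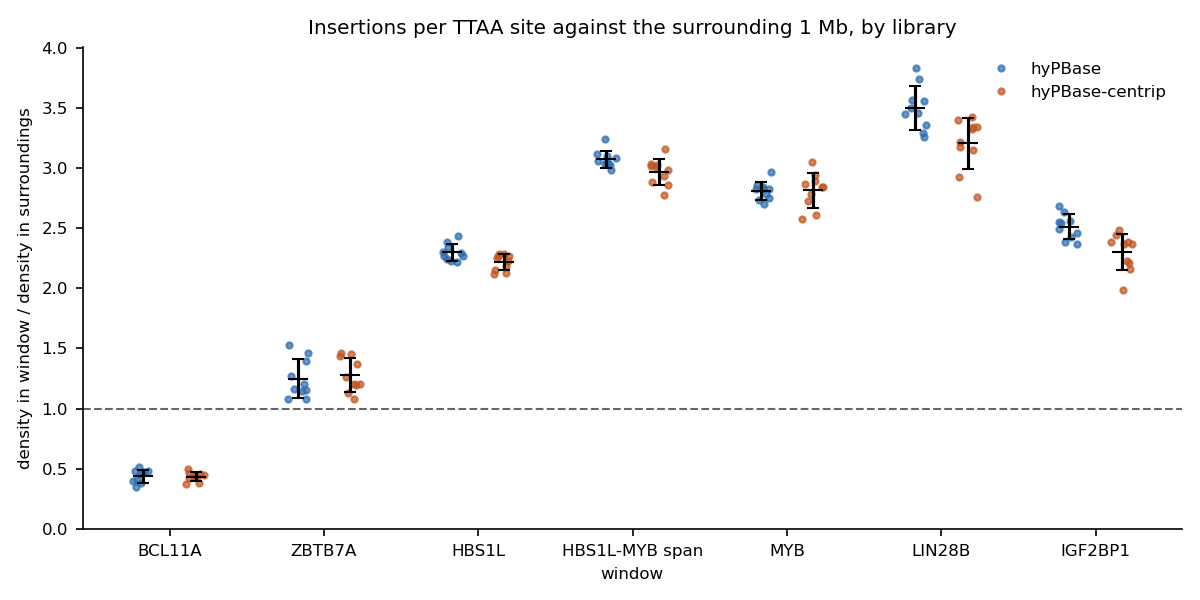
Insertions per TTAA site in each window divided by that in the surrounding 1 Mb, for 10 libraries with hyPBase (blue) and 10 with hyPBase-centrip (orange), with bars for the mean ± SD and a dashed line at 1. BCL11A lies below 1 in all 20 libraries, ZBTB7A between 1.08 and 1.53, and the other windows above 1.98.

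By the share of sites hit BCL11A was again the lowest and MYB the highest. At least 1 insertion was found at 88.6% of the TTAA sites of the MYB window, 84.0% for HBS1L, 76.4% for IGF2BP1, 73.4% for LIN28B, 64.1% for ZBTB7A and 54.6% for BCL11A. Sites hit in all 20 libraries numbered 145 in the HBS1L window, 93 for MYB, 51 for IGF2BP1, 38 for LIN28B, 6 for ZBTB7A and 0 for BCL11A. The reads behind an insertion, relative to the mean of its library, were 1.38 ± 0.128 for IGF2BP1, 1.23 ± 0.216 for ZBTB7A and 0.842 ± 0.0915 for BCL11A (SD, n = 20), and from 1.035 to 1.12 for the others.

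Within the windows the insertions were concentrated in a few stretches. In the IGF2BP1 window a single 2 kb bin, from -6.00 to -4.00 kb of the start, held 5718 insertions at 34 TTAA sites, which is 34.1% of the window. Its 168 insertions per site were 42.0 times the median bin of the window, and a library held between 144 and 341 there. In 10 kb steps, IGF2BP1 had 115 insertions per site in the step just upstream of the start and 41.7 in the step just downstream, against 1.93 to 6.61 in the other steps within 50 kb. High density was thus limited to the 10 kb steps on either side of the start. The flank farther upstream held 4.97 to 6.61 per site, and the gene body from 10 to 50 kb held 1.93 to 3.44.

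LIN28B showed the same narrow shape around its start. Its densest bin, from -6.49 to -4.49 kb of the canonical start, held 2895 insertions at 28 sites, 103 per site and 15.3% of the window. The 10 kb steps before and after the start held 51.5 and 29.4 per site, and the other steps within 50 kb from 1.01 to 11.0. GENCODE has 2 longer LIN28B transcripts that begin at -20.5 and -16.2 kb, so the densest bin lies inside the annotated gene.

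Between HBS1L and MYB the density was spread more widely. The interval between their canonical start sites held 37438 insertions at 936 sites, 40.0 per site, against 7.84 over the canonical HBS1L transcript. The step from 40 to 30 kb before the HBS1L start was the densest 10 kb step of any gene here, at 118 per site. The bin from -31.6 to -29.6 kb of that start reached 175 per site, with 76 to 176 insertions in a library. For MYB the step from 40 to 30 kb upstream held 86.8 per site and the steps on either side of the start 43.3 and 34.9. The densest MYB bin lay beyond the gene, 48.0 to 50.0 kb downstream of the start, with 1560 insertions at 10 sites. The same window held a stretch with almost none, 3 insertions at the 15 sites from -28.0 to -26.0 kb of the start.

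ZBTB7A and BCL11A held far fewer insertions, and their profiles were less even between libraries. For ZBTB7A the 10 kb upstream of the start held 675 insertions at only 12 sites, 56.3 per site, and the 10 kb downstream 125 at 5 sites. Among bins with at least 5 TTAA sites the densest for ZBTB7A was 59.6 to 61.6 kb downstream of its start, with 25.4 per site. For BCL11A the densest bin, from -2.87 to -0.866 kb of the start, held 44 insertions at 7 sites, 6.29 per site. The sparsest BCL11A bin, in intron 2 from 55.1 to 57.1 kb downstream of the start, held 0 insertions at 8 sites.

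**Figure D2:**
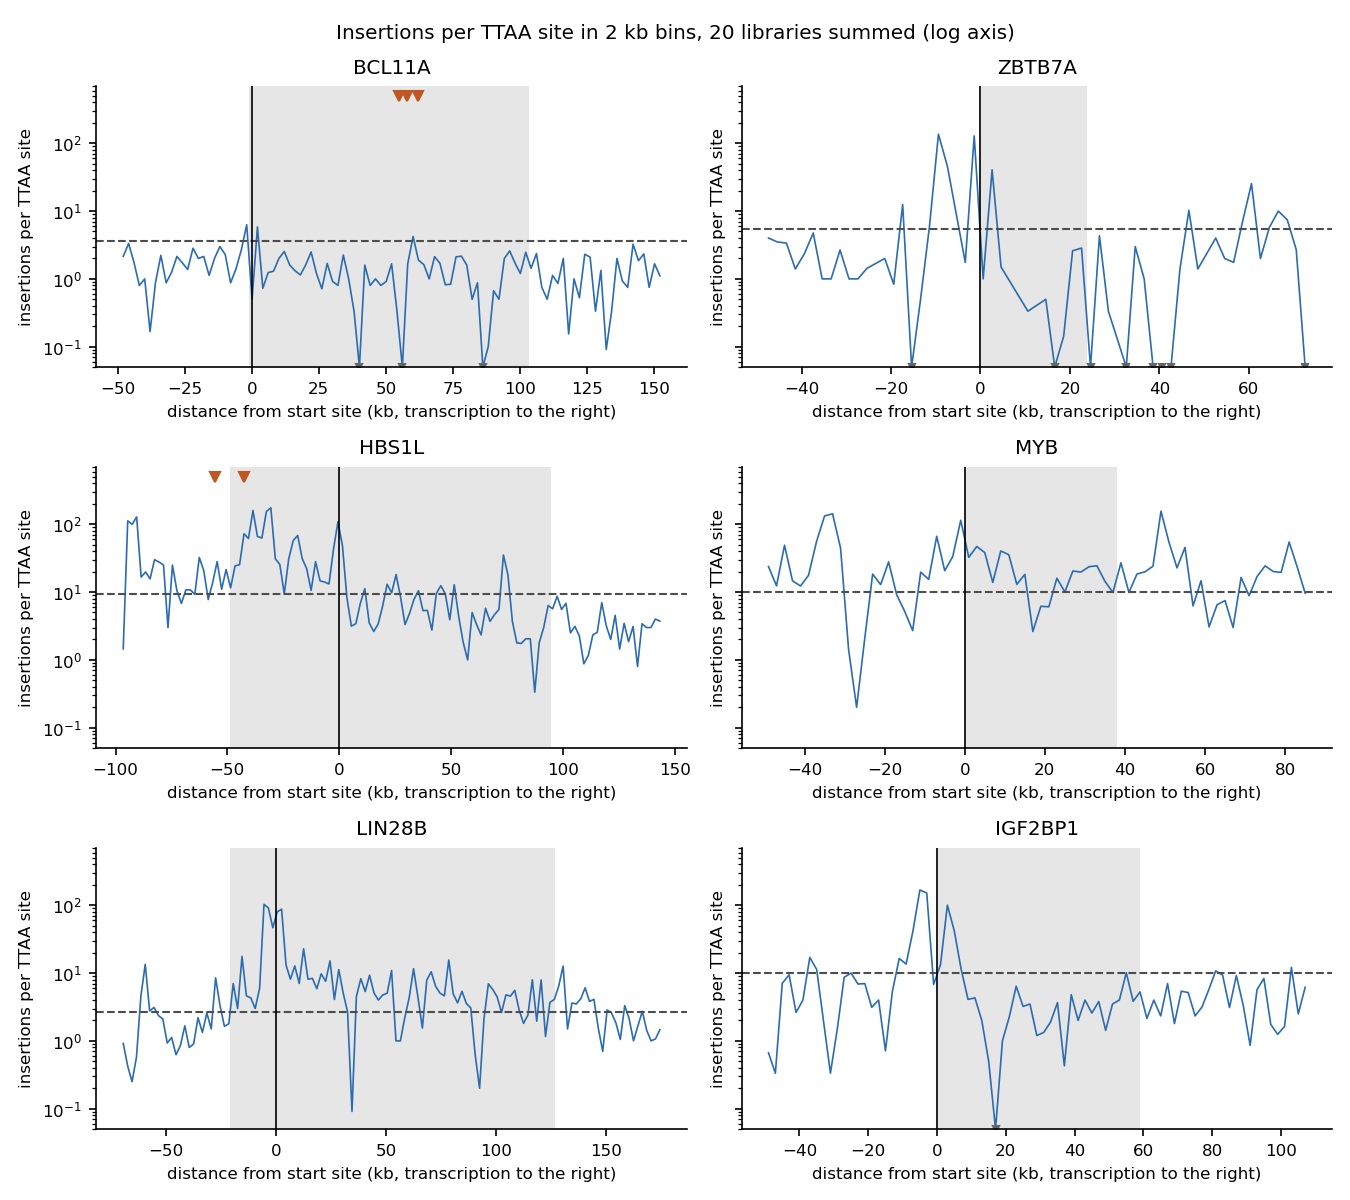
Insertions per TTAA site in 2 kb bins (log axis, 20 libraries summed) against distance from the canonical start site, with the gene body in grey, the level of the surrounding 1 Mb as a dashed line, bins with 0 insertions as grey triangles at the lower edge and enhancer positions as orange triangles, bins without a TTAA left out. The density rises to over 100 per site around the starts of LIN28B, IGF2BP1 and MYB and over the upstream part of HBS1L. MYB also exceeds 100 at -35, -33 and 49 kb. BCL11A stays at or under 6.29 in bins with at least 5 sites. Many ZBTB7A bins hold fewer than 5 TTAA sites, among them those at 128.5 and 136 per site.

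The next question was whether known regulatory positions were denser than the rest of their window, counted 1 kb either side. The start of LIN28B stood far above its window, the MYB -84 kb enhancer was above, and the start of HBS1L was modestly above. The start of IGF2BP1 was below, and neither the start of MYB nor its -71 kb enhancer passed the test at the main count. For the MYB enhancers the window was that of the whole HBS1L and MYB span. Only intervals with at least 3 TTAA sites and at least 20 insertions observed or expected were tested, which the starts of ZBTB7A and BCL11A and the 3 BCL11A enhancers did not reach. Of the 4 tested starts, 2 were denser and 1 sparser, against 64.1% denser and 19.9% sparser of 11774 starts tested (edgeR quasi-likelihood test). The median log2 ratio was 0.34 for the 4 starts and 1.06 for all.

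At the LIN28B start 1484 insertions lay on 20 sites, 74.2 per site against 8.39 in the rest of the window. A library held from 35 to 98, median 73.0, and all 20 were denser there than in the rest of the window. The difference gave p = 0.00195 within each helper, the smallest the exact two-sided sign-flip permutation test over 10 libraries can give. At the MYB -84 kb enhancer 1593 insertions lay on 22 sites, 72.4 per site against 21.1 in the rest of the span window. The log2 ratio of 1.76 ± 0.05 (SE) lay at the 64.0th percentile of the 11774 starts tested, that of the LIN28B start at the 87.75th. The interval between the starts of HBS1L and MYB, where this enhancer lies, held 40.0 per site. Of 179 bins compared in the span window, 169 were sparser than the enhancer. Denser 2 kb bins lay close by, with 160 and 175 per site centred at -87.9 and -95.9 kb of the MYB start. At the enhancer itself, a library held from 38 to 110 insertions, median 85.5. There 20 of 20 libraries were denser than in the rest of the span window, again with p = 0.00195 in each helper (exact sign-flip permutation test). At the MYB -71 kb enhancer the 352 insertions came to 20.7 per site against 21.5, a log2 ratio of -0.07 with a 95% interval from -0.23 to 0.10. That interval excludes a rise of the size seen at -84 kb. The result at -71 kb depended on how insertions were counted. It passed as sparser with at least 2 reads per insertion (-0.35, adjusted p = 0.00114 by edgeR). With barcodes collapsed it passed as denser (0.33, adjusted p = 0.00126 by edgeR). The 2 enhancers of the same gene thus had levels 72.4 and 20.7.

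The HBS1L start held 300 insertions at 10 sites, 30.0 per site against 21.2, with a log2 ratio of 0.47 ± 0.08 (SE, adjusted p = 3.84e-08 by edgeR) and 17 of 20 libraries denser. The MYB start held 163 at 5 sites, 32.6 per site against 27.8, which did not pass (log2 ratio 0.20, adjusted p = 0.0555 by edgeR), but passed without hyPBase-centrip replicate 3 (0.24, adjusted p = 0.0279). The IGF2BP1 start held 34 at 5 sites, 6.80 per site against 23.8, with a log2 ratio of -1.82 ± 0.21 (SE, adjusted p = 1.13e-17 by edgeR) and 0 of 20 libraries denser, but no longer passed with barcodes collapsed (-0.46, adjusted p = 0.143).

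The width of the interval decided the sign at some starts. Within 0.5 kb, the IGF2BP1 start held 6.33 insertions per site, and within 2.5 kb it held 114 per site at 15 sites, turning the log2 ratio to 2.38 (adjusted p = 4.86e-189 by edgeR). The MYB start rose from 4.00 per site at its single site within 0.5 kb to 86.6 at 20 sites within 2.5 kb. The ZBTB7A start held 1 insertion at 1 site within 1 kb and 258 at 3 sites within 2.5 kb. The BCL11A start held 3 at 6 sites within 1 kb and 40 at 12 sites within 2.5 kb, 3.33 per site against 1.54. At these 4 genes the density within 2.5 kb was above that within 0.5 kb, where MYB and ZBTB7A have a single TTAA site each. HBS1L rose as well, from 21.3 per site at 3 sites within 0.5 kb to 76.1 at 36 sites within 2.5 kb. Its log2 ratio within 2.5 kb was 1.90 (adjusted p = 4.64e-192 by edgeR). LIN28B held 113.5 per site within 0.5 kb.

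The BCL11A intron 2 enhancers, which maintain BCL11A expression in erythroid cells, held few insertions. At +55 kb there were 0 insertions at 4 sites where the rest of the window would give 6.27, and a count of 0 allows up to 0.75 per site, under the 1.57 of the rest of the window. At +58 kb there were 4 at 2 sites, and at +62 kb 17 at 9 sites from 12 libraries, 1.89 per site against 1.56. No difference from the window was detectable at this depth for +58 and +62 kb within 1 kb. Within 2.5 kb, where the intervals overlap, +55 kb held 2 insertions at 15 sites, +58 kb 37 at 15 sites and +62 kb 68 at 25 sites, with log2 ratios of -2.68, 0.48 and 0.69 (adjusted p = 2.63e-08, 0.0202 and 0.000138 by edgeR). The limits here cover counting error only.

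**Figure D3:**
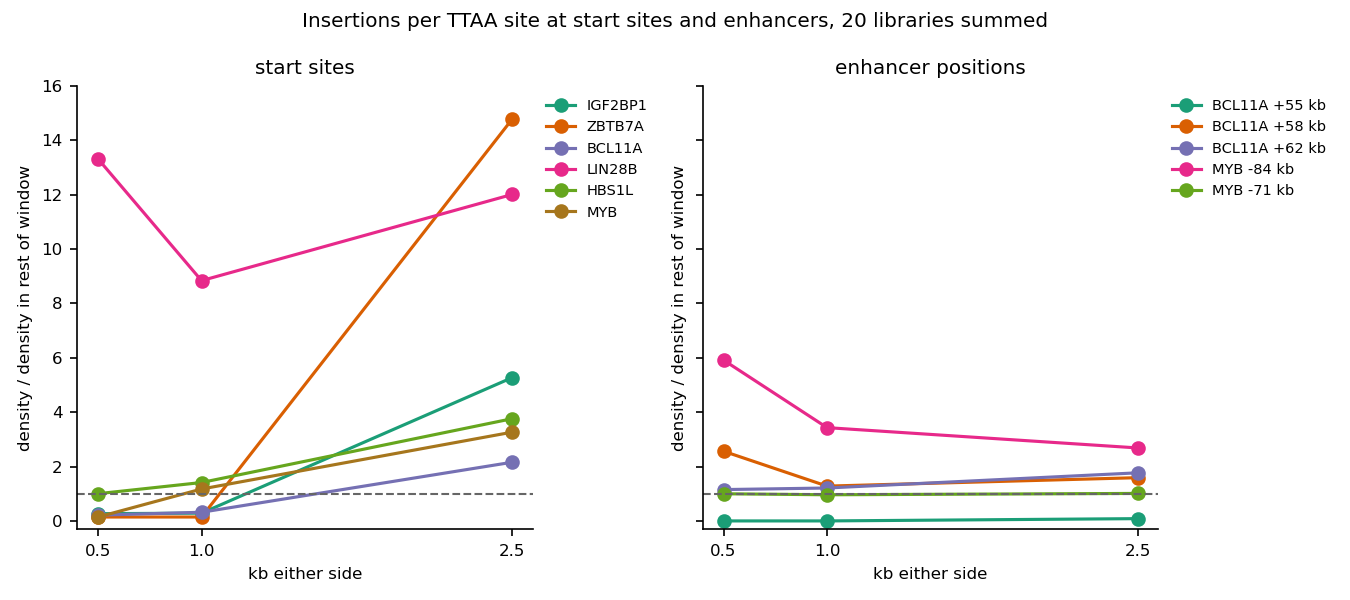
Pooled insertions per TTAA site at start sites (left) and enhancers (right) divided by the rest of the window, for intervals of 0.5, 1 and 2.5 kb either side, with a dashed line at 1. LIN28B is high at each width, while IGF2BP1, ZBTB7A, MYB, BCL11A and HBS1L are higher at 2.5 kb than at 0.5 kb. The MYB -84 kb enhancer falls from 5.92 to 2.68.

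The orientation of insertions was compared with the strand of the gene, using the orientation column as deposited; which end of the transposon it refers to is not given in the sources used here. In the gene bodies insertions lay mostly on the strand opposite to the gene. The same-strand share was below 50% for 5 of 6 genes at an adjusted p below 0.05, as for 81.3% of 14031 genes tested (limma), while above 50% were 6.26% of genes and none of the 6. Over all genes the share was 33.2%.

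Relative to all genes, 2 of 6 had a lower share, as had 44.1% of genes tested. MYB had the lowest share, 15.7% of 5914 gene-body insertions. The share per library ran from 12.0 to 17.8% with hyPBase, median 15.7%, and from 11.9 to 18.3% with hyPBase-centrip, median 16.5%. Relative to all genes the log2 ratio of same to opposite strand was -1.42 ± 0.05 (SE, adjusted p = 1.26e-24 by limma). IGF2BP1, at 30.2%, was also below all genes (-0.21 ± 0.04, SE, adjusted p = 4.99e-05 by limma), though at the 46.0th percentile of genes tested. Its mean share was 27.1% with hyPBase against 32.5% over all genes. With hyPBase-centrip it was 33.1% against 33.8%.

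LIN28B at 34.3%, HBS1L at 39.5% and ZBTB7A at 42.9% were above all genes, as were 37.9% of genes tested. The log2 ratios relative to all genes were 0.07, 0.39 and 0.65 (adjusted p = 9.00e-04, 4.94e-21 and 0.00317 by limma). The LIN28B ratio fell to 0.01 (adjusted p = 0.681) with barcodes collapsed. The HBS1L share was uneven along the gene. Over the canonical HBS1L transcript it was 13.9% of 7057 insertions, below the 33.2% of all genes. In the HBS1L gene body upstream of the canonical start it was 48.1% of 21016. ZBTB7A had 191 gene-body insertions only, and its own share did not differ from 50% (log2 ratio -0.36, 95% interval -0.75 to 0.02, adjusted p = 0.0824 by limma). BCL11A at 32.1% did not differ from all genes (log2 ratio -0.08, 95% interval -0.29 to 0.12, adjusted p = 0.456 by limma).

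**Figure D4:**
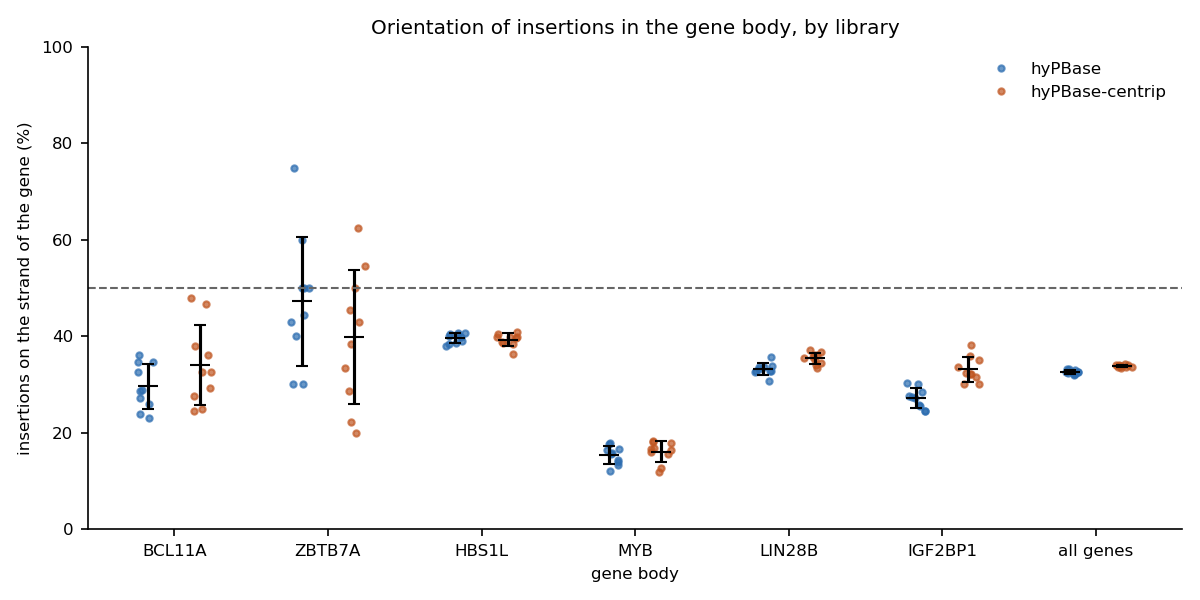
Percent of gene-body insertions on the strand of the gene in each library with hyPBase (blue) and hyPBase-centrip (orange), with bars for the mean ± SD, a dashed line at 50% and all genes at the right. MYB lies between 11.9 and 18.3%, the other genes nearer to the 33.2% of all genes, and ZBTB7A spreads widely on its 191 insertions.

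The shift was larger in the first intron than in the later introns of most of the genes. In the first intron of MYB only 0.786% of 1272 insertions lay on the strand of the gene, against 18.5% of 4391 in its later introns. The first introns of BCL11A, HBS1L, IGF2BP1 and LIN28B held 2.82%, 2.93%, 5.00% and 5.26%, against 33.95%, 15.3%, 29.7% and 44.7% in their later introns. The first introns of BCL11A and IGF2BP1 rest on 71 and 40 insertions. That of LIN28B spans only 0.838 kb and rests on 190, and over the first 10 kb downstream of its start the share was 70.1% of 3586. ZBTB7A differed, with 35.7% of the 126 insertions in its first intron on its own strand.

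Across the start site the orientation changed within 10 kb in most of the genes. For MYB the share was 45.8% ± 3.27 in the 10 kb upstream and 3.25% ± 1.61 in the 10 kb downstream (SD, n = 20). For HBS1L it went from 29.8% ± 4.65 to 3.18% ± 1.76, and for IGF2BP1 from 58.7% ± 1.59 to 30.7% ± 4.21 (SD, n = 20). In these 3 genes the downstream share was lower in 20 of 20 libraries. BCL11A went from 53.8% of 158 insertions to 5.56% of 108, lower in 17 libraries and higher in 1. ZBTB7A went from 38.1% to 36.0%, lower in 13 libraries and higher in 6. Of 10573 genes with at least 100 insertions on each side, 76.2% were lower downstream, with medians of 46.3% upstream and 27.6% downstream. A drop at the start was thus common to most genes.

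LIN28B went the other way. Its share was 17.01% ± 2.5 upstream and 70.5% ± 3.98 downstream of the canonical start (SD, n = 20), higher downstream in 20 of 20 libraries. The rise of 52.8 percentage points lay at the 99.6th percentile of the same 10573 genes, a comparison chosen after its value was seen. The upstream stretch lies inside the longer LIN28B transcripts. Its 2 most-hit TTAA sites, 1.83 and 1.88 kb downstream of the start in intron 2, had 85.5% and 92.9% of their insertions on the strand of the gene.

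Outside the gene bodies the shares varied. The 50 kb upstream had 45.0% for MYB, 59.6% for HBS1L, 58.2% for IGF2BP1 and 57.8% for BCL11A, each nearer to 50% than the gene body. LIN28B, at 27.8%, and ZBTB7A, at 33.0%, were further from 50% there than in the gene body. The region between the start sites of HBS1L and MYB had 48.1% when counted on the MYB strand. At its densest single site, the HBS1L site shown above, 361 insertions were in the plus and 232 in the minus orientation.

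**Figure D5:**
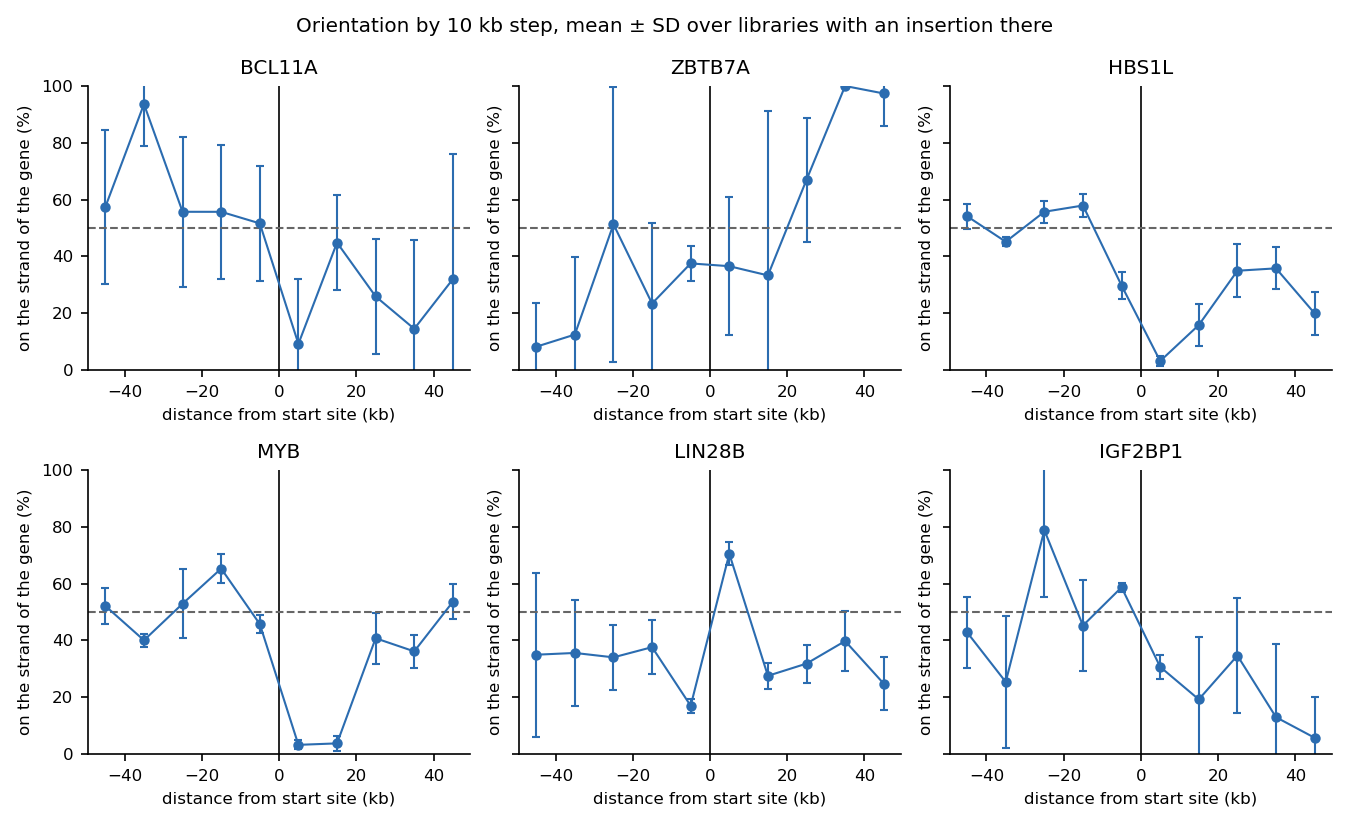
Percent of insertions on the strand of the gene in 10 kb steps from 50 kb upstream to 50 kb downstream of the canonical start, as mean ± SD over the libraries with an insertion in the step (bars are clipped at 0 and 100%). MYB and HBS1L fall to 3.25 and 3.18% just downstream of the start, LIN28B rises to 70.5%, and BCL11A and ZBTB7A vary widely on few insertions.

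The helpers were then compared. With hyPBase-centrip the windows of IGF2BP1, HBS1L, MYB and LIN28B held fewer insertions than with hyPBase, from 0.888 to 0.932 times as many, while BCL11A and ZBTB7A did not pass the test. Fewer insertions were called for 4 of 6 genes against 2.22% of 19743 genes tested, and more for none of the 6 against 1.13% (edgeR quasi-likelihood test, Benjamini-Hochberg adjusted). By size of the log2 difference, IGF2BP1 lay at the 2.85th percentile of all genes, HBS1L at the 7.34th, LIN28B at the 9.76th and MYB at the 10.14th. Drops of the size seen at HBS1L, LIN28B and MYB were thus more common than the share called. The median log2 difference was -0.10 for the 6 genes and 0.0017 for all genes. HBS1L and MYB share part of their windows and are not separate evidence.

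IGF2BP1 held from 327 to 357 CPM with hyPBase (insertions scaled to 1000000 in the library), median 339 CPM, and from 285 to 333 CPM with hyPBase-centrip, median 311 CPM. The ranges overlapped slightly, and the log2 difference was -0.17 ± 0.03 (SE, adjusted p = 9.20e-06 by edgeR). The span of HBS1L and MYB held from 1086 to 1204 CPM with hyPBase and from 1006 to 1119 with hyPBase-centrip, a log2 difference of -0.11 ± 0.02 (SE, adjusted p = 5.08e-04 by edgeR). HBS1L alone gave -0.12 (adjusted p = 3.14e-04) and MYB -0.10 (adjusted p = 0.00961) by edgeR. LIN28B gave -0.10 (adjusted p = 0.0197 by edgeR), with 341 to 397 CPM against 297 to 374, and was -0.08 (adjusted p = 0.046) without hyPBase-centrip replicate 3. LIN28B and MYB no longer passed with at least 2 reads per insertion (adjusted p = 0.187 and 0.114) or for the gene body alone (0.071 and 0.177, edgeR). The calls for all 4 genes were lost when insertions at a position and orientation were counted once in a library whatever their barcode (adjusted p = 0.0511 for HBS1L and from 0.299 to 0.513 for the others), although each log2 difference stayed negative. Under that count 29 and 8 genes of the whole table were still called lower and higher.

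BCL11A held from 29.5 to 41.7 CPM with hyPBase and from 30.4 to 40.1 with hyPBase-centrip, a log2 difference of -0.03 with a 95% interval from -0.16 to 0.10. ZBTB7A gave 0.03 with an interval from -0.11 to 0.18. Counts in these windows were low. The differences of MYB and LIN28B lie within both intervals, that of HBS1L within the BCL11A interval only, and that of IGF2BP1 within neither.

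The same-strand share relative to all genes differed between helpers for none of the 6 genes (limma, adjusted p from 0.142 to 0.975), against 0.0784% of genes tested. At an unadjusted p below 0.05, IGF2BP1 and HBS1L differed by limma. By a permutation test on the share per library, IGF2BP1 was 4.70 percentage points higher with hyPBase-centrip relative to all genes (p = 0.00046, two-sided, not adjusted) and HBS1L 1.61 lower (p = 0.00644). In IGF2BP1 the share itself ran from 24.5 to 30.4% with hyPBase and from 30.1 to 38.2% with hyPBase-centrip, against 32.5% and 33.8% over all genes.

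Other genes linked to globin switching were counted for comparison, from a list of 26 that held factors such as KLF1 and SOX6, subunits of the NuRD repressor complex and relatives of LIN28B and IGF2BP1. Of these, 15 windows were denser and 8 sparser than their surroundings, against 48.2% and 45.3% of all genes, with 9 and 1 by at least 2-fold, against 15.5% and 13.3%, and the median log2 ratio was 0.24 against 0.03. The highest were NFIA at 3.02 and MBD2 at 2.05, and the lowest HIC2 at -2.02 and LIN28A at -0.92. In the gene body 22 of the 25 tested were below 50% same-strand and 2 above, against 81.3% and 6.26% of all genes. With hyPBase-centrip 2 were lower, SOX6 at -0.12 and IGF2BP2 at -0.09 on the log2 scale (adjusted p = 0.000246 and 0.0339 by edgeR), and 0 were higher, against 2.22% and 1.13% of all genes. Of the family of IGF2BP1, IGF2BP2 and IGF2BP3 were also denser than their surroundings, at log2 ratios of 1.22 and 1.12, but IGF2BP3 did not pass the helper test (-0.07, adjusted p = 0.144 by edgeR).

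By likeness of 3 standardised values (log2 density over surroundings, log2 same-strand ratio and log2 helper difference, each from 20 libraries), the nearest of 14031 genes was DCLK3 for BCL11A, TENT5D for MYB, ZBED5 for HBS1L, PABIR1 for LIN28B and NCOA3 for IGF2BP1. For ZBTB7A it was a gene without a symbol, ENSG00000284773. The distances ran from 0.0374 for ZBTB7A to 0.187 for IGF2BP1, and NCOA3 had log2 values of 1.23 for density, -1.36 for strand and -0.16 for helper beside 1.26, -1.22 and -0.17 for IGF2BP1.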

How the data were processed

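Transposon insertions of 20 K562 libraries, 10 with each helper, were analysed, and 2 libraries with conflicting labels were left out. Per the labels, cDNA was primed with oligo(dT) on total RNA and transposon transcripts were enriched by PCR, and the processing notes name Trimmomatic, BWA, SAMtools and hg38, with no role or version. The authors deposited a table per library with a line for each insertion, giving position, the count of reads, orientation and barcode, without normalization. Each line was taken as 1 insertion. The hg38 sequence gave the TTAA sites and GENCODE 44 the genes and canonical transcripts. The 6 genes, the 26 further genes and the enhancer positions were chosen with earlier results of these data known.

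Density and strand were tested with limma 3.58.1 on log2 ratios with a pseudocount of 0.5 insertions, and helpers and start-site intervals with edgeR 4.0.16 (quasi-likelihood test, TMM for helpers, an offset for intervals), in R 4.3.3, over all protein-coding genes with a mean of at least 5 insertions per library, or over intervals as stated. Strand ratios leave out stretches where a gene of the other strand overlaps. P-values were adjusted by Benjamini-Hochberg. Where named, exact sign-flip permutation tests or permutation tests with 100000 resamples used 1 value per library. Each test was also run on simulated data with 200 changed genes. The genes, bins and sites named are all 6 genes and the span, the densest and sparsest 2 kb bin with at least 5 TTAA sites and the most-hit TTAA site of each window, the nearest gene by likeness, and the 2 highest and 2 lowest of the further genes by density. Alternatives were at least 2 reads per insertion, collapsed barcodes, other windows, widths, filters, pseudocounts and normalizations, DESeq2 1.42.0, Fisher's exact test on pooled insertions, a term for library size, a replicate block, and leaving out hyPBase-centrip replicate 3. Depth ranged from 1509672 to 3596762 insertions per library, and intervals from a count cover counting error only.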

Additional observations from a re-analysis of the deposited data

Results flagged for a closer look

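In 40 groups of 10 libraries checked for a value far from the rest, 3 stood out by Dixon's criterion, about as many as chance gives at 1 in 20. The span of HBS1L and MYB held 1086 CPM (insertions scaled to 1000000 in the library) in hyPBase replicate 3, where the next lowest library with that helper held 1145. The fold of that span over its surroundings was 3.24 in hyPBase replicate 4, where the next highest was 3.11. The LIN28B window held 297 CPM in hyPBase-centrip replicate 3, where the next lowest held 337. The LIN28B helper difference was still called without that library. Causes were not tested.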

How the results depend on the processing

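Of 314 values under other settings, 281 kept their direction and their side of the threshold. With barcodes collapsed, the helper differences for HBS1L, the HBS1L and MYB span, IGF2BP1, LIN28B and MYB were -0.12, -0.10, -0.091, -0.089 and -0.074 on the log2 scale and no longer passed, BCL11A turned to 0.0505 and ZBTB7A to -0.036. Under the same count the LIN28B strand ratio against all genes fell to 0.012 and the MYB helper difference in strand turned to 0.062. The start of IGF2BP1 fell to -0.46, that of MYB turned to -0.36, and the MYB -71 kb enhancer turned to 0.33 and passed. With at least 2 reads per insertion, the helper differences of LIN28B (-0.0937) and MYB (-0.0944) no longer passed and ZBTB7A turned to -0.0099, BCL11A turned to 0.10 in strand against all genes, the helper differences in strand turned to 0.017 for MYB and 0.14 for ZBTB7A, and the MYB -71 kb enhancer passed at -0.35. For the gene body alone, the helper differences of LIN28B (-0.0935) and MYB (-0.10) no longer passed, BCL11A turned to 0.0937, and ZBTB7A density turned to -0.25. Over the gene body and 50 kb either side, the strand ratio turned to 0.044 for IGF2BP1 and passed at -0.76 for ZBTB7A. Within 0.5 kb the HBS1L start turned to -0.060, and within 2.5 kb the IGF2BP1 start turned to 2.38, the MYB start passed at 1.69 and the MYB -71 kb enhancer turned to 0.011. By permutation, without adjustment over genes, the helper difference in strand had p below 0.05 for IGF2BP1 (4.70 points) and HBS1L (-1.61 points). Before adjustment the limma p was below 0.05 for both as well. By sign-flip permutation in the hyPBase libraries, the MYB -71 kb difference in density was 0.031. Without hyPBase-centrip replicate 3 the MYB start passed at 0.24. The causes were not tested.

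Replicate numbers did not pair the libraries, since the correlation of same-numbered libraries over 19165 windows ran from -0.061 to 0.046 and 1 library correlated best with its own number. A replicate block changed no call for the 6 genes, and over all genes it gave 400 lower and 203 higher with hyPBase-centrip against 439 and 223 without it. Those 439 and 223 became 29 and 8 with barcodes collapsed, 173 and 97 for the gene body, 287 and 158 with at least 2 reads, 325 and 108 by DESeq2, 476 and 499 by Fisher's exact test, and 618 and 390 with a term for library size. Genes called above 50% same-strand numbered 879, and 479 with barcodes collapsed, 1682 without a filter and 2366 with 50 kb either side. The 11 genes called for a helper difference in strand became 0 with at least 2 reads, 2 with barcodes collapsed or with the block, and 4 without replicate 3. Start sites called sparser numbered 2339 of 11774 tested, and 841 of 4189 within 0.5 kb, 4819 of 18115 within 2.5 kb, 1181 of 10563 with barcodes collapsed and 3918 of 19194 without a filter, and those called denser 7549, and 2753 within 0.5 kb, where fewer were tested. Precision was lowest in the windows of BCL11A and ZBTB7A, which held the fewest insertions.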
